A study of Rattus norvegicus with 3 samples.

Results

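Cytochrome P450 enzymes and the other enzymes that oxidise or conjugate drugs, steroids, lipids and reactive aldehydes were followed on 3 rat expression arrays. The members were every gene whose symbol marks it as a cytochrome P450, glutathione transferase, UDP-glucuronosyltransferase, sulfotransferase, quinone reductase, epoxide hydrolase, aldehyde dehydrogenase or aldo-keto reductase. The rule used no measured value. It gave 100 genes of the 4736 that had a probe set with a single gene symbol, and these 100 genes had 173 probe sets. Each array carried total RNA of a rat sample labelled with pineal gland and adrenal medulla together. The arrays stand for time labels of 0.0 h, 0.1 h and 1.0 h in a time course. The labels name no treatment, strain, age, sex or number of animals, and they do not say which tissue a single sample holds. With 1 array for each of the 3 times, differences have no replicate behind them and no test between conditions was possible.

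Cytochromes P450 are haem enzymes that insert oxygen into their substrates, and most of them take electrons from cytochrome P450 reductase in the endoplasmic reticulum. The mitochondrial P450 of the adrenal cortex and gonads, with a few microsomal ones, convert cholesterol to steroid hormones. The liver uses many P450 of families 1 to 3 to oxidise drugs, and the products are then coupled to glutathione, glucuronic acid or sulfate for excretion. Quinone reductase, epoxide hydrolases, aldehyde dehydrogenases and aldo-keto reductases remove reactive intermediates. Several of these genes are known targets of the transcription factor NRF2, which senses oxidative stress, or of the aryl hydrocarbon receptor.

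The values below are intensities, 1 per probe set, with the overall level of the arrays made equal. Readings under 262.9, the 40th percentile of the pooled values, were taken as below a floor. A gene was read from its brightest probe set, and 2 arrays were compared only where both lay above the floor. Intensities of different probe sets do not rank transcripts, because probes bind with different strength. The share of probe sets above the floor was 58.8% to 60.9% on the 3 arrays. As a sign of RNA quality, the signal of the 3' probe set of beta-actin over that of its 5' probe set came to 10.4 at 0.0 h, 17.8 at 0.1 h and 44.4 at 1.0 h, while for GAPDH it lay between 14.1 and 18.6. Of 7 pinealocyte markers with a probe set, 6 were above the floor on all 3 arrays. Of 7 chromaffin cell markers 3 were, and these were Chgb, Ddc and Pnmt. The chromaffin markers Slc18a1 and Slc18a2 were below the floor on every array. Among the defining enzymes of the adrenal medulla, Th and Dbh of catecholamine synthesis were below the floor on every array, while Pnmt, which makes adrenaline, was above it, between 514.2 and 657.5. In bulk RNA such as this, fewer cells of a type and less RNA per cell cannot be told apart.

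With the floor of 262.9, fewer than 1 in 2 of the detoxification genes were measurable throughout, while with a floor at the 20th percentile 66 of the 100 were. Of the 100 genes, 45 or 45.0% were above the floor of 262.9 on all 3 arrays, 23 on 1 or 2 arrays and 32 on none. Among all 4736 genes, 61.6% were above it on all 3 arrays and 23.9% on none. The counts by class ranged widely. Liver-type P450 here means families 1 to 3, grouped by symbol and not by tissue, so the class also holds genes such as Cyp2d4, known from brain. All 3 arrays were above the floor for 10 of 12 glutathione transferases and 7 of 9 aldehyde dehydrogenases, but only for 8 of 28 liver-type P450, 2 of 10 UDP-glucuronosyltransferases, 3 of 9 sulfotransferases and none of 5 steroidogenic P450. Of the 49 P450 genes together, 16 were above it on all 3 arrays, or 32.7%, compared with 29 of the 51 other members, or 56.9%. Counted on single arrays, 56, 56 and 58 of the 100 genes were above the floor at 0.0 h, 0.1 h and 1.0 h. The genes just above it by their lowest array were Akr7a3 with 286.8 and Cyp2c23 with 297.2, and those just below it Cyp4a1 with 261.3 and Cyp27b1 with 252.1.

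**Figure D1:**
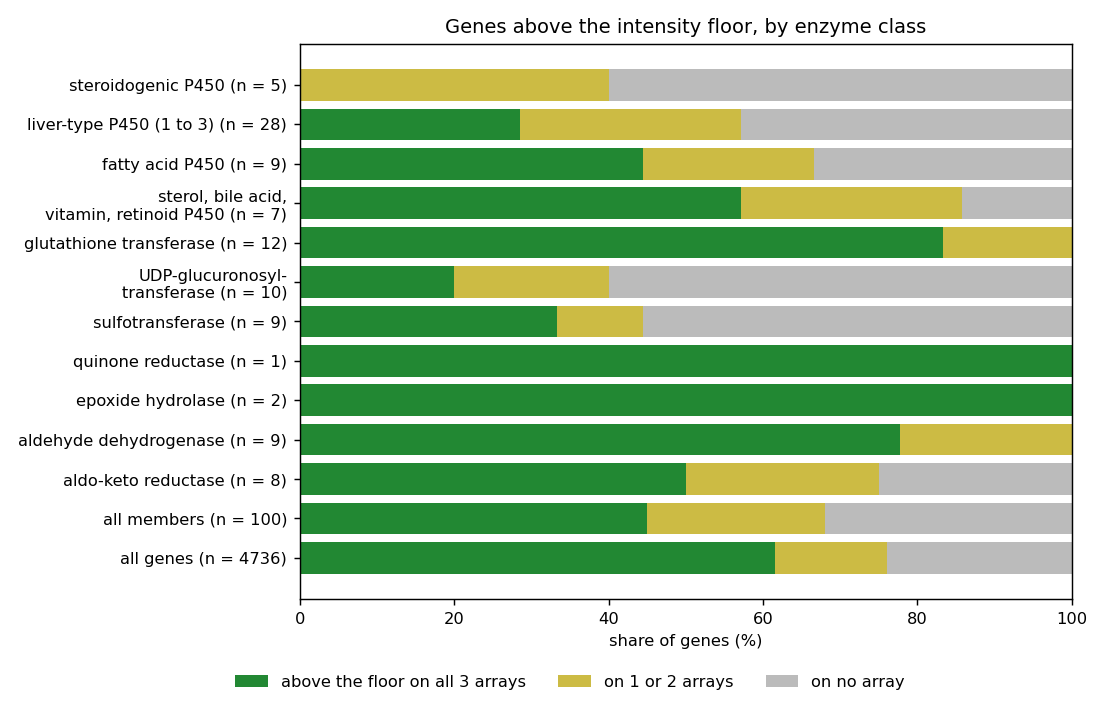
Share of genes in percent (x axis) above the intensity floor on all 3 arrays, on 1 or 2 arrays or on no array, for each enzyme class, all members and all genes (y axis, with the number of genes). The bars of glutathione transferases and aldehyde dehydrogenases are mostly green, at 10 of 12 and 7 of 9 genes, and the bar of steroidogenic P450 has no green part.

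No steroidogenic P450 was above the floor throughout. Cyp11a1, which cleaves the side chain of cholesterol and opens steroid synthesis, had 109.7 at 0.0 h, 55.6 at 0.1 h and 75.8 at 1.0 h. Cyp17a1, on the route to androgens, had 109.7, 41.2 and 101.2. The aldosterone synthase gene Cyp11b2 had 28.3, 23.0 and 98.0. These 3 genes were below the floor on every array. The steroid hydroxylase gene Cyp21a1, needed for corticosterone and aldosterone, had 395.7, 187.9 and 512.6, with the 0.1 h reading under the floor. The aromatase gene Cyp19a1, whose product makes estrogens, had 37.0, 484.7 and 300.3, so its 0.0 h reading alone was under the floor. Each of the 5 genes had 1 probe set. A further probe set shared by Cyp11b1 and Cyp11b2 had 105.3, 152.9 and 434.4, above the floor on the 1.0 h array alone.

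The partners of steroid synthesis were split. Star, which brings cholesterol into mitochondria, was below the floor with 89.3, 43.5 and 215.6. By contrast Tspo, a protein of the outer mitochondrial membrane, had 16982, 13907 and 18996, and the lipoprotein receptor gene Scarb1 had 5046, 3628 and 5609. The ferredoxin gene Fdx1, the electron donor of mitochondrial P450, had 18709, 11136 and 15072. Of 13 steroid synthesis partners with a probe set, a list without Fdx1, 5 were above the floor on all 3 arrays. None of these was 2-fold apart in any comparison. The brightest was Hsd17b4, with 23161, 19444 and 20233. As markers of the adrenal cortex, 4 genes had a probe set and 2 of them, Fdx1 and Scarb1, were above the floor on all 3 arrays. Their summed intensity was 23907, 15118 and 21023 at 0.0 h, 0.1 h and 1.0 h. Fdx1 and Scarb1 are also expressed in many other tissues, and the part of cortical cells in these readings was not tested.

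Of the 28 liver-type P450, 8 were above the floor on all 3 arrays, 8 on 1 or 2 and 12 on none. Cyp1b1, which oxidises estradiol and polycyclic hydrocarbons, had 18054, 12006 and 15573 at 0.0 h, 0.1 h and 1.0 h. Cyp2d4, a rat P450 known from brain, had 3608, 4151 and 3419. The other Cyp2d4 probe set had 117.5, 136.6 and 342.5, above the floor at 1.0 h alone. Cyp2a1 had 901.4, 927.9 and 495.3. Then came Cyp3a23-3a1, a steroid and drug hydroxylase of liver, with 845.5, 748.3 and 653.8, the ethanol-oxidising Cyp2e1 with 714.7, 543.1 and 625.6, and Cyp2a2 with 577.8, 493.0 and 309.5. Other Cyp3a23-3a1 probe sets ranged from one below the floor on every array, with 23.6, 41.8 and 62.3, to one above it throughout, with 340.5, 357.8 and 399.9. The remaining genes of this class above the floor on all 3 arrays were Cyp2c13, between 369.4 and 397.9, and the arachidonic acid epoxygenase gene Cyp2c23, between 297.2 and 388.6. Cyp2c13, Cyp2c23 and Cyp2e1 each also had a probe set below the floor on every array, though another of Cyp2e1 was above it throughout. A further Cyp1b1 probe set had 217.0, 178.9 and 281.2, above the floor at 1.0 h alone, while the others of Cyp1b1 were above it throughout.

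The other liver-type P450 were dim. Cyp1a1, Cyp2a3, Cyp2b12, Cyp2b3, Cyp2c11, Cyp2c12, Cyp2c22, Cyp2c7, Cyp2g1, Cyp3a18, Cyp3a2 and Cyp3a9 were below the floor on every array, with intensities from 10.0 to 254.2. Cyp2c11 is the main P450 of the male rat liver, and its 3 readings were 167.2, 176.6 and 177.7. Cyp1a1, the classical target of the aryl hydrocarbon receptor, had 42.7, 67.1 and 59.7, and that receptor's own gene, Ahr, was below the floor as well with 103.7, 140.6 and 130.4. Cyp1a2, Cyp2b15, Cyp2b2, Cyp2c6v1, Cyp2d2, Cyp2d3, Cyp2f4 and Cyp2j3 were above the floor on 1 or 2 arrays, and none of their values exceeded 414.9. Of 11 hepatocyte markers with a probe set, 4 were above the floor on all 3 arrays and 3 on none, and the albumin gene Alb had 54.6, 529.1 and 420.1. Their summed intensity of 43767, 43299 and 43462 came mostly from Ttr, also a pineal and choroid plexus gene, which had 41433, 40240 and 39524. The part of liver RNA in the P450 readings was not tested.

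P450 with endogenous substrates included several genes above the floor on every array. Cyp51, the lanosterol demethylase of cholesterol synthesis, had 2078, 6626 and 4749, and Cyp7b1, which hydroxylates oxysterols and neurosteroids, had 4146, 4313 and 2015. Cyp27a1, a mitochondrial sterol hydroxylase, had 1689, 2224 and 2443, and Cyp24a1, which inactivates vitamin D, 602.9, 885.7 and 681.5. The other Cyp24a1 probe set had 23.6, 50.7 and 154.8, below the floor on every array. Cyp26b1, which breaks down retinoic acid, had 66.0, 432.4 and 442.3 and was under the floor at 0.0 h alone. Cyp7a1, the rate-limiting enzyme of bile acid synthesis in liver, was below the floor throughout, between 62.3 and 98.0. Among fatty acid hydroxylases, Cyp4f6 had 1906, 3590 and 2668, Cyp4f17 522.6, 849.0 and 1022, and Cyp4a8 598.2, 372.5 and 519.0. Cyp4f5 was brighter at 1.0 h, with 370.4, 394.1 and 709.4, and Cyp4b1, Cyp4f1 and Cyp4f4 were below the floor on every array. On the probe sets read, Cyp51 and Cyp7b1 were thus the P450 of this kind whose arrays lay farthest apart with all readings above the floor. The other Cyp27a1 probe set, also above it throughout, had 823.0, 307.3 and 314.7.

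**Figure D2:**
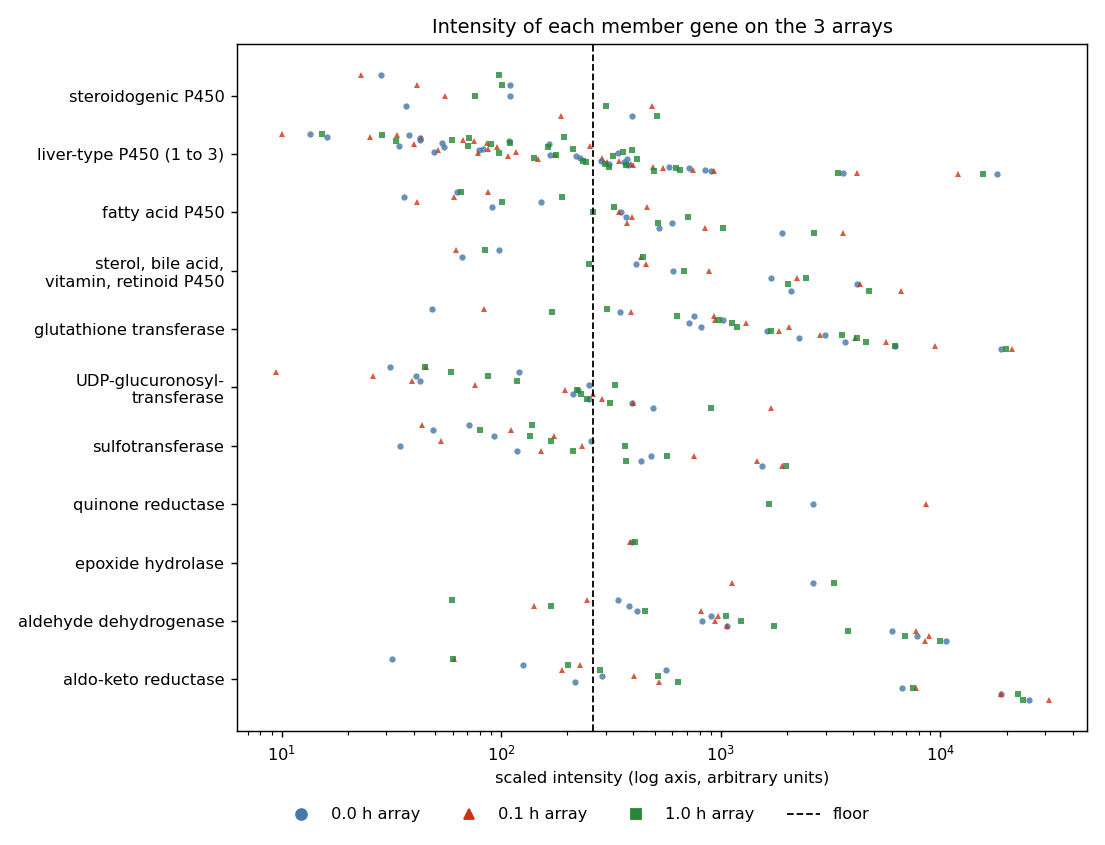
Scaled intensity (x axis, log scale, arbitrary units) of the 100 member genes on the 0.0 h array (circles), the 0.1 h array (triangles) and the 1.0 h array (squares), by enzyme class, with 1 row of symbols per gene and the floor of 262.9 as a dashed line. Cyp1b1, between 12006 and 18054, lies far to the right of the other liver-type P450 (families 1 to 3), and all 3 symbols of 12 of those 28 genes lie left of the line.

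Several glutathione transferases and aldo-keto reductases read far above the floor on every array. The mu-class glutathione transferase gene Gstm1 had 18946, 21187 and 19801 at 0.0 h, 0.1 h and 1.0 h, the pi-class gene Gstp1 6212, 9405 and 6238, and the alpha-class gene Gsta1 3670, 5620 and 4583. The other Gstp1 probe set had 42.6, 54.5 and 84.2, below the floor on every array. The aldo-keto reductase genes Akr1a1 and Akr1b1, the second encoding aldose reductase, had 25408, 31130 and 23819, and 18798, 18830 and 22428. Akr7a2, another aldehyde reductase gene, had 6688, 7716 and 7535. On the probe sets read, none of the 6 genes was more than 1.53-fold apart in any comparison. Another Gsta1 probe set moved more, with 1008.2, 3196.5 and 2344.5 at 0.0 h, 0.1 h and 1.0 h. The omega-class gene Gsto1 had 2258, 4097 and 4147, with 0.0 h the lowest. Gstm5, Gsta4, Gstk1, Gstt2 and Gstm2 were also above the floor throughout, with intensities from 632.1 to 3577. Gstt1 had 346.7, 388.5 and 170.5, under the floor at 1.0 h, and Gsta3 exceeded it at 1.0 h alone with 303.5.

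Aldehyde dehydrogenases were measurable on all 3 arrays in 7 of 9 genes. Aldh7a1, an enzyme of lysine breakdown, had 10587, 8470 and 9912, and Aldh3a2, which oxidises fatty aldehydes, 7781, 8859 and 6925. Aldh1a1, which makes retinoic acid from retinal, had 6032, 7731 and 3794, and was the one member of the class at least 2-fold apart in a comparison. Aldh2, the mitochondrial enzyme that clears acetaldehyde and monoamine aldehydes, had 1067, 1071 and 1737. Aldh1a2 and Aldh1l1 were above the floor on the 0.0 h array alone, with 338.8 and 380.0. Of the other aldo-keto reductases, Akr7a3 had 286.8, 402.0 and 519.6, and Akr1c13 and Akr1c14 were below the floor on every array.

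Of the conjugating transferases outside the glutathione class, few were measurable. Sult5a1 had 1539, 1890 and 1980, Sult2a2 479.9, 752.8 and 567.9, and Sult1c3 434.8, 1465 and 370.2. Among UDP-glucuronosyltransferases, Ugt2b had 489.3, 1690 and 905.8 and Ugt2a1, known from olfactory tissue, 395.1 at 0.0 h and 312.4 at 1.0 h, with a 0.1 h reading 1.01-fold above that of 0.0 h. Ugt2b1 was above the floor on the 0.1 h array alone with 287.0. Ugt8, which makes the galactolipids of myelin, was below the floor throughout, between 211.3 and 262.1, as were 5 further UDP-glucuronosyltransferases and 5 of the 9 sulfotransferases. The soluble epoxide hydrolase gene Ephx2 had 2633, 1127 and 3267, while the microsomal one, Ephx1, was level at 395.8, 385.4 and 405.0.

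The first question was which enzymes differed between the 0.1 h and the 0.0 h array. Of 50 measured members, 5 or 10.0% reached 2-fold, where 5.68% of all measured genes did. They were Ugt2b, Sult1c3, Nqo1, Cyp51 and Gstm7, 1 gene from each of 5 classes. Ugt2b was 3.45-fold higher, with 1690 at 0.1 h and 489.3 at 0.0 h. Sult1c3 was 3.37-fold higher, with 1465 at 0.1 h and 434.8 at 0.0 h. Nqo1, the quinone reductase and a known NRF2 target, was 3.28-fold higher, with 8600 at 0.1 h and 2621 at 0.0 h. All of these readings were above the floor, and the 0.1 h reading was the highest of the 3 arrays in each.

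Cyp51 was 3.19-fold higher, with 6626 at 0.1 h and 2078 at 0.0 h, and Gstm7 2.53-fold higher, with 2046 at 0.1 h and 809.2 at 0.0 h. Cyp51 was at least 2-fold higher on each of its 3 measured probe sets. The other 2 measured probe sets had log2 differences of 1.76 and 1.27, beside 1.67 for the one read. Ephx2 alone was at least 2-fold lower, at 2.34-fold, with 1127 at 0.1 h and 2633 at 0.0 h. It was 1 of 50 members, or 2.00%, where 4.71% of all measured genes were at least 2-fold lower. A probe set of the same Ephx2 sequence had a log2 difference of -1.21, but one from another sequence had 0.49. Averaging all 4 Ephx2 probe sets gave -0.43.

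Nqo1, Sult1c3 and Ugt2b each rested on 1 measured probe set, since their others were below the floor. The second Nqo1 probe set had 251.2, 220.0 and 44.0 at 0.0 h, 0.1 h and 1.0 h, and averaging both brought the Nqo1 log2 difference from 1.71 to 0.76. With Gstm7, which had 1 probe set, 4 of the 5 higher genes therefore have no second reading.

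As a group, the 50 measured members had a median log2 difference of 0.19 between 0.1 h and 0.0 h, and 38 of them lay above 0, where 1491 of 2994 genes did and the median of all was 0.00. The P450 genes had a median of 0.09 over 20 and the other members 0.25 over 30, of which 25 lay above 0. Glutathione transferases were part of this: 9 of 11 lay above 0 with a median of 0.31, among them Gstk1 at 1.82-fold and Gsto1 at 1.81-fold higher. With the 9 spike-in controls made equal, the median of all genes became -0.28, that of the members -0.08 and that of the glutathione transferases 0.03, so the members' median changed sign and was still above that of all genes. With quantile normalisation the P450 median was 0.00. Aldh3a1, Cyp4f6 and Gstp1 were 1.96-fold, 1.88-fold and 1.51-fold higher, short of 2-fold. The SD of log2 differences between probe sets of the same gene was 0.47 over 724 genes and 0.59 over 19 members, which sets the scale on which such differences can be read. Beside these differences, 2 of 4 measured leukocyte markers, 1 of 4 astrocyte markers and 1 of 6 pinealocyte markers were at least 2-fold higher at 0.1 h than at 0.0 h. The pinealocyte marker was Asmt, the last enzyme of melatonin synthesis, with 5746, 13864 and 9167 at 0.0 h, 0.1 h and 1.0 h. The summed intensity of the leukocyte markers was 3398, 5121 and 5704 at 0.0 h, 0.1 h and 1.0 h, that of the astrocyte markers 16591, 23155 and 21091, and that of the pinealocyte markers 59398, 66840 and 53251. Their part in the enzyme readings was not tested, nor was that of the beta-actin ratio.

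**Figure D3:**
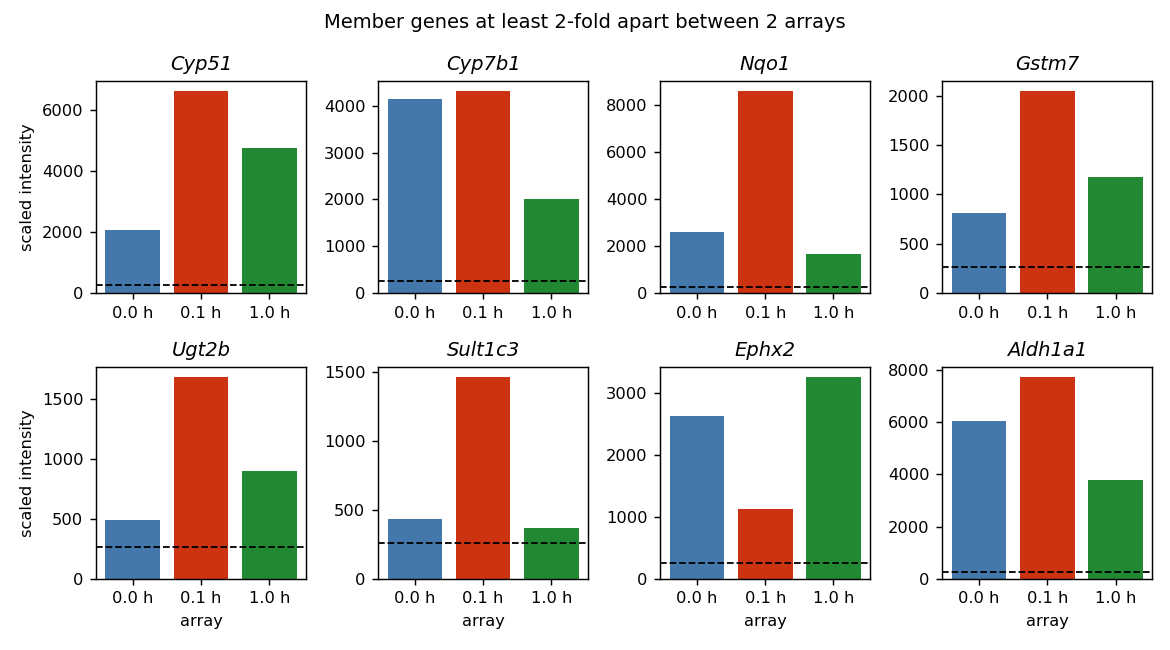
Scaled intensity (y axis from 0, each panel on its own scale) on the 0.0 h, 0.1 h and 1.0 h arrays (x axis) for the 8 member genes at least 2-fold apart in a comparison, 1 array per bar, with the floor of 262.9 as a dashed line. The 0.1 h bar is the tallest for Cyp51, Nqo1, Gstm7, Ugt2b and Sult1c3 and the shortest for Ephx2, and the 1.0 h bar is the shortest for Cyp7b1 and Aldh1a1.

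The sequences just before the annotated starts of 3 of the higher genes are shown because they hold 1 of the response element cores searched. The antioxidant response element core, TGACNNNGC, and the xenobiotic response element core, GCGTG, were searched on both strands of windows of 250 bases before to 50 after the start, from RefSeq on the build GRCr8, using the start listed first for each gene. No match of one motif overlaps a match of the other in the sequences shown. The 150 bases before the start are given in the direction of the gene, with the match in capitals.
Gstm7 (chr2:198260320-198260469, minus strand): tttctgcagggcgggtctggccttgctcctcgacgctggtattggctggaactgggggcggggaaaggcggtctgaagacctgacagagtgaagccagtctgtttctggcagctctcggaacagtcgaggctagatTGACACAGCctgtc
Cyp51 (chr4:30991543-30991692, plus strand): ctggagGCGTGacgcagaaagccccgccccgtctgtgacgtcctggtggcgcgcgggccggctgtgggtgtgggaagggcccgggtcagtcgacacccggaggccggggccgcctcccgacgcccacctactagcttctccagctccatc
Nqo1 (chr19:52220268-52220417, minus strand): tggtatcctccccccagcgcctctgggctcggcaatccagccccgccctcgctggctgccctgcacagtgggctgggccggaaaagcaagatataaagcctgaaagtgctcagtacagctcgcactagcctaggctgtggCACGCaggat
The Gstm7 window held an antioxidant core at -14 from the start, the Cyp51 window a xenobiotic core at -144 and the Nqo1 window a xenobiotic core on the opposite strand at -10. No match to either motif lay in the windows of Ugt2b, Sult1c3 and Aldh1a1. Ephx2 and Cyp7b1, also at least 2-fold apart, were not matched to a promoter and were not searched. Of 78 members matched to a promoter, 8 or 10.3% held the antioxidant core, where 12.2% of 27457 promoters did and 14.2% of those of genes on the array. The xenobiotic core was in 17 members or 21.8%, where 31.1% of all promoters and 43.5% of those of genes on the array held it. A match is only a run of letters and says nothing about binding.

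Few members were far apart between the 1.0 h and the 0.0 h array, the widest span of the time course. Cyp51 was again higher, at 2.29-fold with 4749 at 1.0 h and 2078 at 0.0 h, and Cyp7b1 was lower, at 2.06-fold with 2015 at 1.0 h and 4146 at 0.0 h. The Cyp7b1 log2 difference of -1.04 was -0.98 on the deposited scale and -0.84 with equal spike-in controls, both under 2-fold. Each is 1 of 48 measured members, or 2.08%, where 2.34% of all genes passed that fold upwards and 2.64% downwards. The other 2 measured Cyp51 probe sets had log2 differences of 0.40 and 0.46, beside 1.19 for the one read. Akr1d1, which reduces steroids and bile acid precursors, was 1.99-fold lower, with 282.2 at 1.0 h and 562.8 at 0.0 h. The other Akr1d1 probe set was below the floor on every array. Near 2-fold higher were Cyp4f17 at 1.95-fold, Cyp4f5 at 1.92-fold and Ugt2b at 1.85-fold. Cyp2a2 lay 1.87-fold lower and Cyp2a1 1.82-fold.

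Over the 48 members measured, 1.0 h against 0.0 h gave a median of 0.09 on the log2 scale, with 28 above 0, where the median of all genes was 0.01. Liver-type P450 lay mostly on the lower side, with 8 of 9 below 0 and a median of -0.19, where all genes had 0.01. With the spike-in controls made equal these became 0.00 for liver-type P450 and 0.21 for all genes. When all probe sets of a gene were averaged, 2 of 5 lay below 0 and their median was 0.16. The leukocyte marker Coro1a was 4.10-fold higher at 1.0 h, with 1850 at 1.0 h and 451.0 at 0.0 h, and the pinealocyte marker Pdc 2.13-fold lower, with 9163 at 1.0 h and 19482 at 0.0 h, and their part in these values was not tested. Both comparisons with 0.0 h use the same array, so its own error enters both values of Cyp51.

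**Figure D4:**
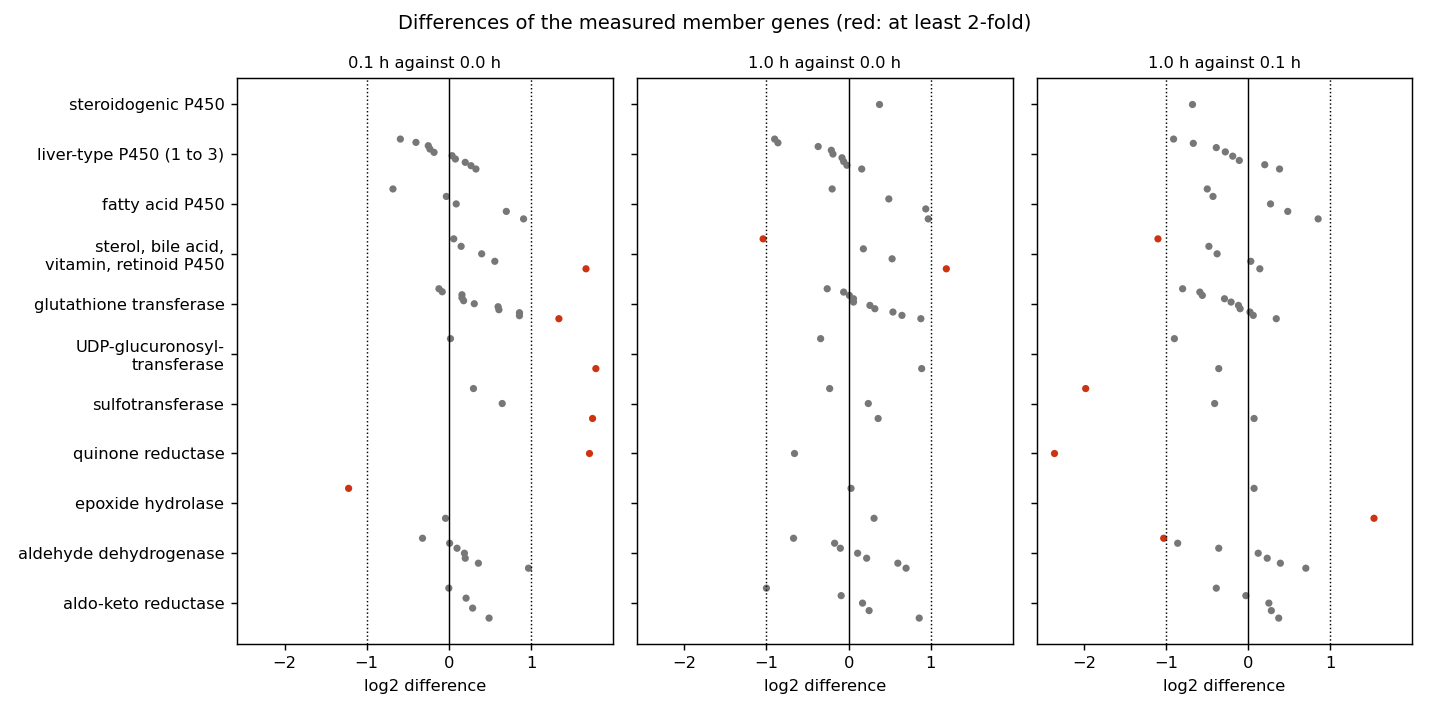
Log2 difference (x axis) of each measured member gene by enzyme class (y axis) in the 3 comparisons, with dotted lines at 2-fold and red points for genes at least 2-fold apart. In the left panel 5 red points lie right of the line and 1 left of it, in the middle panel 1 and 1, and in the right panel 1 and 4.

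The 1.0 h array was also set against the 0.1 h array. Of 49 measured members, 4 or 8.16% were at least 2-fold lower at 1.0 h, where 5.06% of all genes were. Nqo1 was 5.17-fold lower, with 1663 at 1.0 h and 8600 at 0.1 h. Sult1c3 was 3.96-fold lower, with 370.2 at 1.0 h and 1465 at 0.1 h. Cyp7b1 was 2.14-fold lower, with 2015 at 1.0 h and 4313 at 0.1 h. Aldh1a1 was 2.04-fold lower, with 3794 at 1.0 h and 7731 at 0.1 h. The Aldh1a1 log2 difference of -1.03 fell short of 2-fold on the deposited scale (-0.94), with quantile (-0.98) and cyclic loess normalisation (-0.99) and with equal spike-in controls (-0.55). That of Cyp7b1 was -0.63 with equal spike-in controls. Nqo1 and Sult1c3 thus stood out at 0.1 h against each of the other arrays, and Cyp7b1 was low at 1.0 h against each of the others.

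Ephx2 was 2.90-fold higher at 1.0 h, with 3267 at 1.0 h and 1127 at 0.1 h, as 1 of 49 members or 2.04%, where 4.04% of all genes were at least 2-fold higher. The probe set of the same Ephx2 sequence had a log2 difference of 1.10 here, the one from another sequence 0.15, and averaging all gave 0.65, under 2-fold. The median of the 49 members was -0.19, with 29 below 0, while that of all genes was 0.00. It became 0.28 with the spike-in controls made equal, when the median of all genes was 0.47. Beside these values, Pdc was 2.52-fold lower, with 9163 at 1.0 h and 23104 at 0.1 h, and the leukocyte markers Coro1a and Cd74 were each 2.01-fold higher, and their part was not tested. This comparison shares the 0.1 h array with that of 0.1 h against 0.0 h, and its values are not independent of it.

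Genes with several probe sets show how far a reading depends on the probes. Of the 100 members, 48 had 2 or more probe sets. Between 0.1 h and 0.0 h, 19 members had 2 or more measured, and these had 1 direction in 10 and both directions in 9. Cyp1b1 had a log2 difference of -0.59 on its brightest probe set, against 1.02 and 0.96 on its other 2 measured ones. Cyp27a1 had 0.40 on its brightest probe set and -1.42 on the other. The 3 Gsta1 probe sets all lay above 0, with 0.61, 0.84 and 1.66. The same counts were 11 and 8 of 19 members between 1.0 h and 0.0 h, and 10 and 10 of 20 between 1.0 h and 0.1 h.

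**Figure D5:**
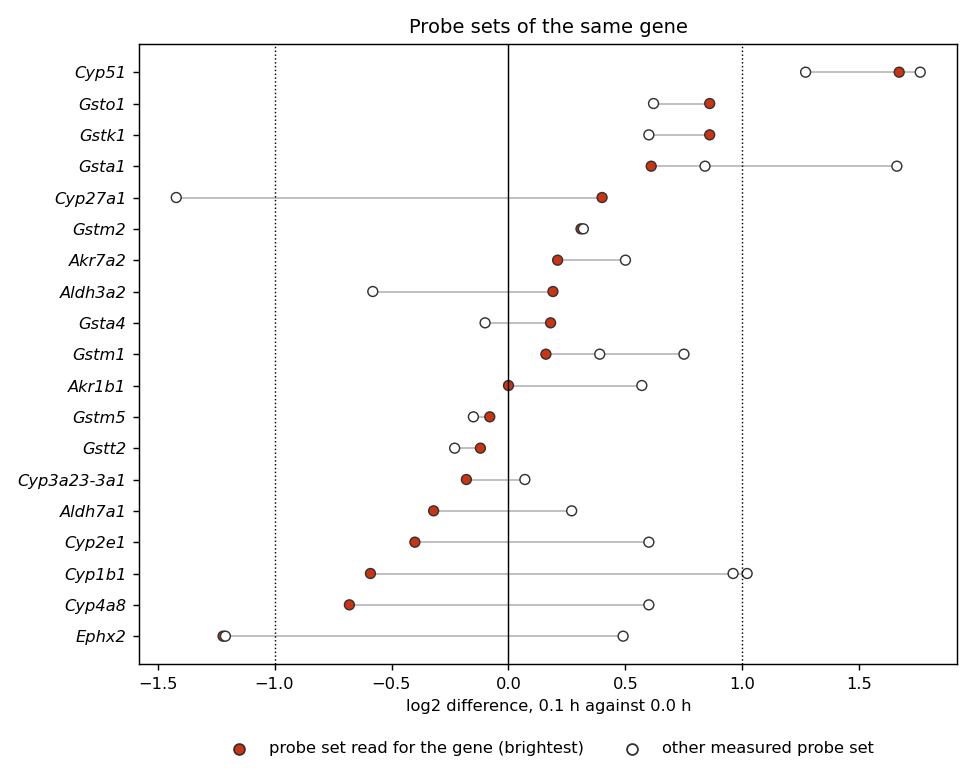
Log2 difference between 0.1 h and 0.0 h (x axis) of each measured probe set of the 19 member genes that had 2 or more (y axis), with the brightest one filled, the others open and dotted lines at 2-fold. All 3 Cyp51 points lie right of the 2-fold line, and the points of Ephx2, Cyp1b1 and Cyp27a1 lie on both sides of 0.

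The families also share a kind of probe set. Probe sets whose names end in _s_at, which match several transcripts, or in _f_at, which match a gene family, made up 88 of the 173 member probe sets, or 50.9%. Among all 7006 probe sets with a single symbol they made up 18.9%. Many of these genes lie in families of close copies, so a reading of Cyp2b, Cyp2c, Gsta, Gstm, Sult2a or Ugt2b genes from such probe sets may hold transcripts of their relatives, and those genes are uncertain to that degree. Gsta1 was read from an _f_at probe set and Gstm1, Gstm7, Gstp1, Nqo1 and Cyp51 from _s_at probe sets. Ugt2b was read from a probe set of another kind, _i_at, which made up 5 of the 173.

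For genes above the floor on only 1 of 2 arrays the difference is a bound, taken against the floor. There were 46 such cases over the 3 comparisons in 23 of the 100 genes, and 2 reached 2-fold. Among all 4736 genes, 688 were above the floor on only 1 or 2 arrays. How many of their bounds reached 2-fold was not counted, so the 2 cases have no share of all genes beside them. Akr1c3, a reductase of steroids and prostaglandins, had 217.7, 524.7 and 636.1, which puts 0.1 h at least 1.99-fold and 1.0 h at least 2.41-fold over 0.0 h. Akr1d1 was at least 2.14-fold lower at 0.1 h, with 189.1 at 0.1 h and 562.8 at 0.0 h. Cyp19a1 was at least 1.84-fold and Cyp26b1 at least 1.64-fold higher at 0.1 h than at 0.0 h. Sult1a1, which sulfates phenols, was at least 1.39-fold higher at 1.0 h, with 365.7 at 1.0 h and 34.6 at 0.0 h. The other probe sets of Akr1c3, Akr1d1 and Sult1a1 were below the floor on every array and give no bound. At 0.0 h, 0.1 h and 1.0 h that of Akr1c3 had 51.3, 129.4 and 87.9. That of Akr1d1 had 25.1, 56.0 and 47.0, and that of Sult1a1 79.1, 22.5 and 23.4.

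Genes that work with these enzymes gave a mixed picture. A list of P450 electron donors and partners was read, which also held Alas1 and Pgrmc1, genes that are not electron donors. Of its 7 measured genes, 2 were at least 2-fold higher at 0.1 h than at 0.0 h and none lower. Of all measured genes, 5.68% were at least 2-fold higher and 4.71% lower. The P450 reductase gene Por was 2.01-fold higher, with 3849 at 0.1 h and 1913 at 0.0 h, and a second probe set had a log2 difference of 0.84. A further Por probe set had 121.4, 647.0 and 348.0 at 0.0 h, 0.1 h and 1.0 h, under the floor at 0.0 h alone. Cytochrome b5, Cyb5a, was 2.32-fold higher where it was brightest, with 2164 at 0.1 h and 931.5 at 0.0 h, but its other 2 had -0.37 and -0.53. The list had a median of 0.11 between 0.1 h and 0.0 h. None of its 7 measured genes was at least 2-fold apart between 1.0 h and 0.0 h or between 1.0 h and 0.1 h.

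A list of NRF2 targets outside the enzyme families was read beside Nqo1. None of its 7 measured genes was at least 2-fold apart between 0.1 h and 0.0 h, and their median was -0.24. Hmox1, haem oxygenase, had 31628, 24978 and 28833 at 0.0 h, 0.1 h and 1.0 h. Txnrd1, thioredoxin reductase, was 2.87-fold lower at 1.0 h than at 0.0 h on its brightest probe set, with 9152 at 1.0 h and 26246 at 0.0 h, while the other had a log2 difference of 0.07. Gclm, a subunit of the enzyme that starts glutathione synthesis, was 2.03-fold lower at 1.0 h than at 0.0 h, with 958.2 at 1.0 h and 1941 at 0.0 h. Another Gclm probe set had a log2 difference of 0.39. A further one had 529.1, 596.9 and 114.7 at 0.0 h, 0.1 h and 1.0 h, under the floor at 1.0 h alone. The gene of NRF2 itself, Nfe2l2, had 4913, 4445 and 3402. Of 6 regulators measured between 1.0 h and 0.1 h, the retinoid receptor gene Rxra was 2.16-fold lower, with 288.4 at 1.0 h and 622.3 at 0.1 h.

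Among 12 other conjugation and oxidation genes measured, Nat2, an acetyltransferase, and Por, which both lists hold, were at least 2-fold higher at 0.1 h than at 0.0 h. Of all measured genes, 5.68% were. Nat2 was 2.20-fold higher, with 11169 at 0.1 h and 5078 at 0.0 h, while another probe set had a log2 difference of -0.55. A further Nat2 probe set had 205.6, 485.1 and 350.8 at 0.0 h, 0.1 h and 1.0 h, under the floor at 0.0 h alone. Maob, which oxidises monoamines, was 2.89-fold lower at 1.0 h than at 0.0 h, with 2299 at 1.0 h and 6647 at 0.0 h. The microsomal glutathione transferase gene Mgst1 was 2.74-fold lower at 1.0 h than at 0.1 h, with 3361 at 1.0 h and 9222 at 0.1 h, and Mgst2 was 2.37-fold higher, with 4365 at 1.0 h and 1844 at 0.1 h. Of 8 drug efflux transporters with a probe set, 2 were above the floor on all 3 arrays, and neither was 2-fold apart in any comparison. They were Abcc1, which exports glutathione conjugates, with 545.4, 723.5 and 752.0, and Abcc6 with 495.9, 358.9 and 617.5.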

How the data were processed

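RNA of 3 rat samples was hybridised to 1 array each. Each probe set has 1 deposited intensity on a linear scale. In the deposited intensity columns, the mean without the highest and lowest 2% was 2503.7 to 2503.9 on each array, so a common scale had been set before deposit. How probe sets were summarised is not given in the sources used here. After log2, each array was centred on its median, the 40th percentile of the pooled values served as a floor, and a last shift made equal the medians of the probe sets that exceeded it everywhere (0.008, 0.042 and -0.05 in all). Genes were named through the platform annotation (7006 of 8740 probe sets other than controls had 1 symbol, and 6985 of these matched a RefSeq gene ID). Members were set by symbol, and members and lists were chosen with earlier results of these data known. Genes with values in the text were all steroidogenic and liver-type P450, the 3 brightest of each class, all members at least 2-fold apart, those nearest the floor, and partner genes by the same fold or brightness. Others were chosen after their values were seen, being near 2-fold, at a bound or, as with Star, Scarb1 and Ahr, of known role. Bounds were rounded down. Differences were counted at 2-fold or more. No p-values were computed, since there was 1 array per label. The steps, run in Python 3.11.15 with pandas 2.3.3, were tested on simulated data. Alternatives were the deposited scale, normalisation by quantiles or by cyclic loess (R 4.3.3 with limma 3.58.1), spike-in scaling, other floors, and the mean or the second-brightest probe set of a gene (for the second, leaving out _g_at probe sets, which overlap another of the same sequence). The number of arrays limits the precision.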

Additional observations from a re-analysis of the deposited data

Results flagged for a closer look

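Probe sets that the annotation gives to more than 1 gene of these families were left out of the counts above. There were 32, of which 17 were below the floor on every array and 4 were above it on all 3 arrays. A probe set shared by 8 genes of the Ugt1a locus had 957.7, 2606.4 and 1370.7 at 0.0 h, 0.1 h and 1.0 h, with a log2 difference of 1.44 between 0.1 h and 0.0 h. Other probe sets of these 8 genes did not all follow it. They had 690.4, 555.7 and 212.5, then 348.9, 199.6 and 63.6, and, in the higher direction, 140.7, 283.5 and 350.2. Another probe set, shared by 6 Ugt1a genes, had 546.4, 483.5 and 612.2. The other probe sets of those 6 genes were not above the floor on all 3 arrays. The probe set of Cyp2b1 and Cyp2b2, phenobarbital-induced P450 of rat liver, had 959.9, 1020.6 and 1109.4. That of Cyp3a2 and Cyp3a23-3a1 had 493.3, 728.0 and 360.0, with a log2 difference of -1.02 between 1.0 h and 0.1 h. These signals lie outside the single-symbol readings, and which gene gave each is not known. A further 2 probe sets list Sult1e1, the estrogen sulfotransferase gene, under more than 1 gene ID and were left out too, and neither was above the floor on all 3 arrays.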

How the results depend on the processing

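All 13 differences of at least 2-fold, in 8 genes, kept their direction with the deposited scale, with quantile and cyclic loess normalisation, with equal spike-in controls and under a lower floor, the 20th percentile, and 11, 12, 12, 10 and 13 of them stayed at least 2-fold. Under a floor at the 60th percentile 10 were still measured, and all 10 stayed. With probe sets averaged 8 were measured and 5 stayed, and on second-brightest probe sets 4 were measured, 1 stayed and 1 reversed: Ephx2 had a log2 difference of 0.49 between 0.1 h and 0.0 h. Counts of genes at least 2-fold apart and medians that moved follow, beside 5 higher and 1 lower (0.1 h against 0.0 h), 1 and 1 (1.0 h against 0.0 h), and 1 and 4 (1.0 h against 0.1 h). Between 1.0 h and 0.0 h, the deposited scale gave 2 higher and 0 lower, and quantile and cyclic loess normalisation 3 lower each. The floor at the 20th percentile left 66 genes above it on all 3 arrays, where the main floor left 45. It gave 6 lower between 0.1 h and 0.0 h, 4 higher, 5 lower and a median of -0.03 between 1.0 h and 0.0 h, and 7 higher between 1.0 h and 0.1 h. The floor at the 60th percentile left 26 genes above it on all 3 arrays, with 3 higher between 0.1 h and 0.0 h and medians of 0.22 between 1.0 h and 0.0 h and -0.08 between 1.0 h and 0.1 h. Averaged probe sets gave 2 higher and 0 lower between 0.1 h and 0.0 h, 0 higher, 2 lower and a median of 0.22 between 1.0 h and 0.0 h, and 0 higher between 1.0 h and 0.1 h. Second-brightest probe sets left 13 genes above the floor, with 2 higher and a median of 0.60 between 0.1 h and 0.0 h, 0 higher and 0.23 between 1.0 h and 0.0 h, and 0 higher and 1 lower between 1.0 h and 0.1 h. Equal spike-in controls gave a median of -0.08 between 0.1 h and 0.0 h, 6 higher, 0 lower and a median of 0.28 between 1.0 h and 0.0 h, and 3 higher, 2 lower and a median of 0.28 between 1.0 h and 0.1 h. Fewer probe sets are measured with a higher floor or on second-brightest probe sets, and the cause of the other changes was not tested. No paired analysis was possible because each time label has 1 array. Genes below the floor on 1 of 2 arrays have only a bound, and those below it on both have neither a difference nor a bound.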
